A study of Drosophila melanogaster with 14 samples.

Results

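ChIP-seq sequences the DNA recovered from chromatin with an antibody, and a peak is a stretch where that DNA exceeds a control. The data described here are the peaks of a rat antibody against dCTCF in whole adult flies, compared between the genotype labelled dCTCFwt and the genotype labelled dCTCFΔ705-733, whose dCTCF lacks residues 705 to 733 (the deletion line). The 2 lists named for this antibody were taken whole. There were 700 wild-type and 648 deletion peaks, 1348 of the 8279 peaks in the 6 lists of the series. Peaks were called shared when their intervals overlapped by 1 bp or more.

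All flies were labelled as strain Oregon-R. Material was 2 g of flies aged 2 to 3 days, and each precipitation used 50 µg of chromatin DNA. Both genotypes had 2 replicate libraries, and 1 rat preimmune library from flies labelled wild type, the control named with both lists, stands behind both. The labels call it preimmune in its title and IgG in the protocol, describe the growth of wild-type flies for all libraries, and do not say whether replicates came from separate cultures. The authors made 1 list from both replicates of a genotype, so no value below has a spread between replicate animals or a test between genotypes, and whole flies mix all tissues, so that fewer cells with a bound site and less binding per cell cannot be told apart. Each listed peak carries its interval, its summit and its −log10 p in 2 sets of calls. The main interval, summit and −log10 p listed for a peak were taken as its first set. The distance between these sets is the measure of error used here, and nothing in the lists ties the sets to the replicates. Only peaks that repeat between the sets were listed, so that this measure can be too small. Fold enrichment, −log10 p and the discovery rate are the authors' own values for each peak.

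dCTCF is the fly homologue of CTCF, a zinc finger protein that binds a DNA sequence and marks boundaries between chromatin domains. In flies it is best known from the bithorax complex, where boundary elements keep the regulatory regions of the homeotic genes apart. CP190 is a BTB-domain protein that joins several insulator proteins, dCTCF among them, at chromatin. The title of the series is about dCTCF acting without CP190, and the comparison asks whether the shortened protein was found at the same places as the full one.

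Of the 700 wild-type peaks, 518 (74.0%, 95% Wilson interval 70.6 to 77.1) overlapped a deletion peak and 182 did not. In the deletion list 515 of 648 peaks (79.5%, 76.2 to 82.4) met a wild-type peak and 133 did not. Intervals cover counting error over peaks only. Which list is longer, and which has the larger share with a partner, turned around with the threshold: with a global irreproducible discovery rate (IDR) of at most 0.01 there were 515 wild-type and 563 deletion peaks, with shares of 90.1% and 82.2%. Both lists name the same preimmune library as control, so that its errors enter both. The 523 overlaps comprised 499 pairs of 1 wild-type and 1 deletion peak that met no other peak, called 1-to-1 pairs below. A further 19 wild-type and 16 deletion peaks had a partner outside these pairs: 5 wild-type peaks overlapped more than 1 deletion peak and 7 deletion peaks more than 1 wild-type peak.

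Peaks without a partner were mostly weak, with a median of 2.31-fold enrichment in wild type and 2.24-fold in the deletion line, against 17.1-fold and 11.6-fold for shared peaks. Fold enrichment, how many times the antibody signal exceeds the preimmune one on a linear scale, orders the peaks of a list. In each of the strongest 2 deciles of the wild-type list 70 of 70 peaks had a partner, and in each of the next 3 deciles 68 of 70 had one. The share then fell from 91.4% in decile 6 to 65.7%, 51.4%, 28.6% and 11.4% in deciles 7 to 10. The deletion list had a partner for 324 of 324 peaks in its strongest 5 deciles. Its share was 98.5% in decile 6, and 90.6%, 61.5%, 26.2% and 18.5% in deciles 7 to 10. The weakest wild-type decile spanned 1.91-fold to 2.17-fold enrichment and the weakest deletion decile 1.86-fold to 2.19-fold. At that strength 69 of 70 wild-type peaks and 52 of 65 deletion peaks had an IDR above 0.01, in lists that end at 0.05. The IDR scores how poorly a peak repeats between 2 sets of calls. It was also above 0.01 at 4 of 70 peaks of the strongest wild-type decile, at places 1, 2, 6 and 9 of the list. A limit of 0.01 therefore leaves out these 4 peaks, while their deletion partners stay. Over all deciles, 134 of 182 wild-type peaks without a partner (73.6%) were above 0.01, against 51 of 518 shared ones (9.85%). In the deletion line the counts were 70 of 133 (52.6%) and 15 of 515 (2.91%). The part of the list threshold in the missing partners was not tested.

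**Figure D1:**
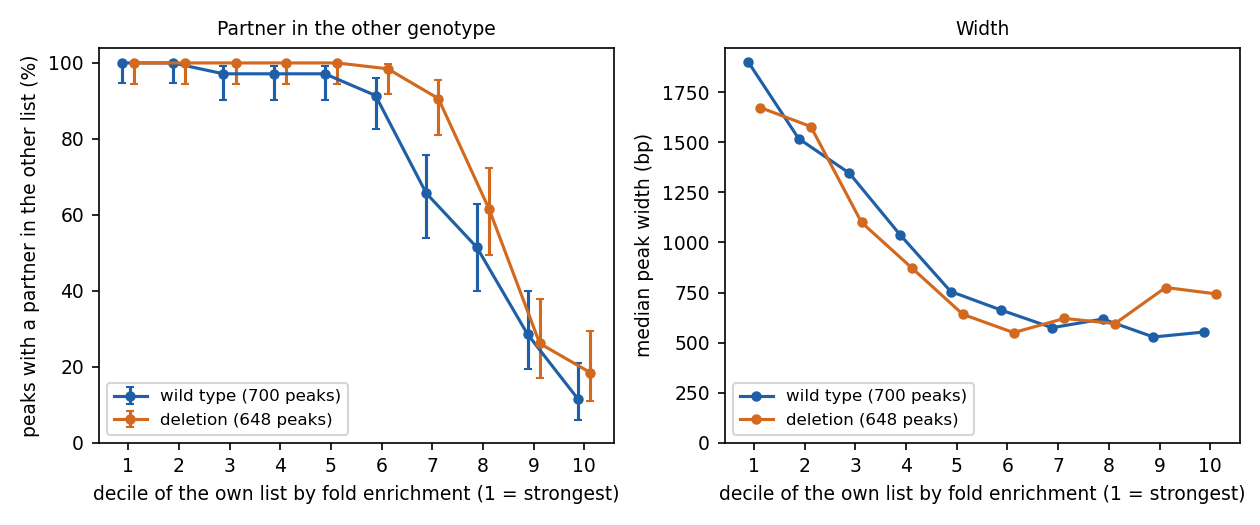
Left, the percentage of peaks with a partner in the other genotype, by decile of fold enrichment in the own list, with 95% Wilson intervals. Right, the median peak width in bp by the same deciles. Of the wild-type peaks 70 of 70 had a partner in the strongest decile and 8 of 70 in the weakest, and the median width was 1903 bp in the strongest wild-type decile and 553 bp in the weakest.

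The strongest peaks of both lists lay at the same places. The highest enrichment in wild type was 197.9-fold at 2L 14705272 to 14707522 (Release 6 coordinates, here and below), between osp and CG15282. The deletion peak there was 74.6-fold, at place 22 of 648, with its summit 31 bp away. The peak between dco, which encodes a casein kinase, and Sox100B, a SoxE transcription factor, was second in wild type (161.2-fold) and at place 33 in the deletion line (66.0-fold). At Tet, which encodes a member of the TET dioxygenase family, the summits lay 5 bp apart, at place 3 in wild type (161.2-fold) and place 2 in the deletion line (129.5-fold). The top deletion peak, at X 13562732 to 13564663 between CG32633 and CG46311, had 142.6-fold enrichment and was at place 4 in wild type (151.2-fold). Among the 10 strongest of either list were also the peaks beside vn, an EGF receptor ligand (places 6 and 4, wild type first), beside Pvf1, a growth factor of the PDGF and VEGF family (5 and 9), and inside otp, a homeobox gene (9 and 6). The peak inside Eip75B, an ecdysone-induced nuclear receptor gene, held place 10 in the wild-type list and 19 in the deletion list. The peaks beside Sp1, a zinc finger factor gene, and beside Toll-7, a Toll-family receptor gene, held places 3 and 7 in the deletion line and 11 and 17 in wild type. Each of the 10 strongest peaks of either list had a partner.

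Summits of 1-to-1 pairs lay close together. Their median distance between genotypes was 12 bp (quartiles 6 and 26), and 471 of 499 (94.4%, 92.0 to 96.1) were at most 100 bp apart. Between the 2 sets of calls the median at the same peaks was 9 bp in the wild-type list (quartiles 3 and 22) and 9 bp in the deletion list (4 and 19), with 93.6% and 95.8% within 100 bp. The share within 100 bp thus lay between those of the 2 lists' own sets, whereas the median was larger between genotypes than between sets. Position was sharpest at strong peaks. In the strongest 100 pairs by wild-type enrichment the median distance was 8.5 bp and the largest 47 bp, and in the weakest 100 pairs the median was 31.5 bp and 24 pairs exceeded 100 bp.

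**Figure D2:**
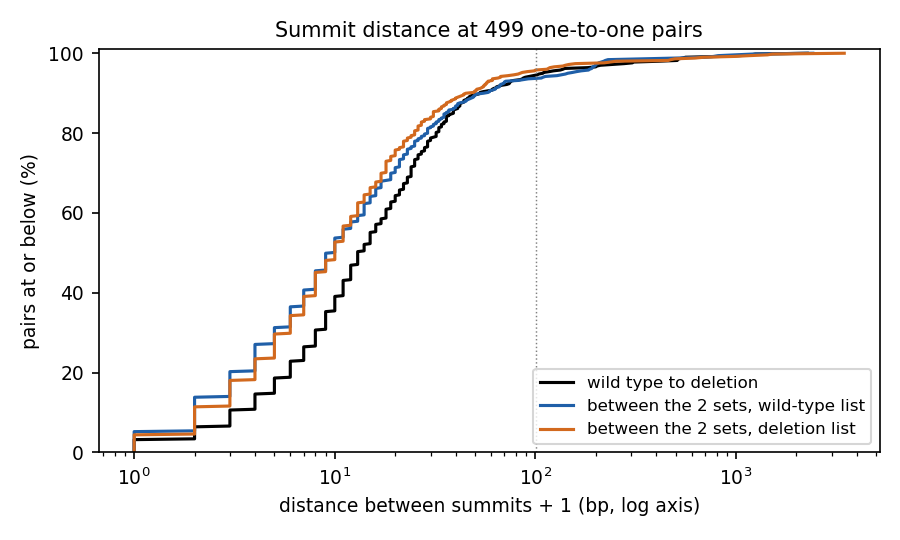
Cumulative percentage of the 499 1-to-1 pairs (y axis) whose summit distance is at or below a value (x axis, bp plus 1 on a log scale, dotted line at a distance of 100 bp). The black line is wild type to deletion, and the coloured lines are the distance between the 2 sets of calls within each list. At 100 bp the lines stand at 94.4%, 93.6% and 95.8%, and the black line has a median of 12 bp against 9 bp.

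The largest summit distances fell at few places. Of the 5 largest, 3 lay between lncRNA:CR44526 and SrpRbeta on 3L, with distances of 2264, 1246 and 1033 bp. There the 2 sets of calls of 1 genotype were themselves up to 2414 bp apart. The widest peak of each list lay further along 3L, 24372 bp wide in wild type (3L 8727991 to 8752362, 80.0-fold) and 36529 bp in the deletion line (3L 8715009 to 8751537, 36.0-fold). The last of the 3 wild-type peaks ended at 8714153, shortly before the wide deletion peak, and another wild-type peak stood between it and the wide wild-type one. Both wide peaks cover the chorion genes Cp15, Cp16 and Cp19, and the deletion peak also Cp18. Chorion genes encode eggshell proteins and are amplified in the follicle cells of the ovary. The wild-type list had 14 peaks in the window 3L 8665009 to 8801537 around the wide deletion peak and the deletion list 11, of which 8 and 8 were shared. The covered length was 63929 and 64601 bp. The other 2 large distances were 1192 bp on an unlocalised Y scaffold and 831 bp inside Gpdh1, a glycerol-3-phosphate dehydrogenase gene. The narrowest peaks were 240 bp in wild type, inside CG2121, and 235 bp in the deletion line, inside Flo2 (a flotillin gene) and CG14406. Neither had a partner.

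Widths were similar over the whole lists, with a median of 873 bp (quartiles 561 and 1453) in wild type and 865 bp (568 and 1374) in the deletion line. At 1-to-1 pairs the deletion peak was narrower in 302 of 499 (60.5%). The median ratio of deletion over wild-type width was 0.94 (quartiles 0.72 and 1.13), against a median ratio between the 2 sets of calls of 0.99 (0.85 and 1.14) in wild type and 1.00 (0.86 and 1.14) in the deletion line. In 5 bins of wild-type enrichment, from the strongest, the median ratio was 0.84, 0.95, 0.91, 0.93 and 1.16. These bins are cut on wild-type values alone, which favours a low ratio in the first and a high one in the last, and no trend is read from them. Among pairs in the strongest 50% of both lists the median ratio was 0.91. The called width of a peak grows with its enrichment and with sequencing depth, and depth is unknown here, as read counts are not part of the lists. Its part in these ratios was not tested.

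Pairs were then ranked within each of the 4 sets of calls by −log10 p, from place 1 (strongest) to 499, which puts both genotypes on 1 scale of equal length. The 2 sets of a list differed by a median of 6 places for wild type and 6 for the deletion line, whereas the mean place moved by a median of 28.5 between genotypes. Each list keeps only peaks that repeat between its sets (IDR up to 0.05), so that the 6 places can understate error between libraries. In 160 pairs (32.1%) both deletion sets ranked below both wild-type sets, and in 253 (50.7%) both ranked above. In 86 pairs the sets overlapped. Non-overlap was thus the common case and by itself marks no particular site. A gap of 50 places or more, a limit chosen after the data were examined, left 61 pairs lower and 55 higher in the deletion line. An HA peak in both genotypes was found at 61 of the 61 lower and 54 of the 55 higher pairs, and at 447 of all 499, so it is the common pattern.

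The 5 pairs whose place by fold enrichment fell most held places 22 to 195 in wild type. They were chosen by that fall, and their values are a description. Between Sox21a and Sox21b, a pair of Sox transcription factor genes, the wild-type peak at 3L 14111324 to 14112203 had a −log10 p of 1094 and 1169 in the 2 sets, and the deletion peak 13.6 and 12.8. Its fold enrichment was 42.0 in the full-length genotype and 2.68 with the deletion, and its place among pairs went from 116 to 457. Its width went from 880 to 386 bp while the summit stayed within 5 bp. The second, inside CG10357 at 3L 3615919 to 3616983, had −log10 p of 1981 and 2034 in wild type and 44.3 and 44.3 in the deletion line (place 52 to 368). The next lay beside sbr, which encodes the main mRNA export receptor, at X 10831581 to 10834047. Values there were 2814 and 2751 in wild type against 158 and 142 in the deletion line (place 22 to 269), and the width went from 2467 to 512 bp. At 3R 7346170 to 7347334, beside nxf4 of the same export factor family, values were 540 and 514 against 16.2 and 12.4 (place 195 to 439). Beside Pgant4, which encodes an enzyme of O-glycosylation, they were 1046 and 1046 against 83.0 and 82.1 (place 128 to 325). In each of these 5 pairs both wild-type sets lay above both deletion sets, and the summits were 5 to 41 bp apart. All 5 had a CP190 peak in wild type but not in the deletion line, a pattern of 59 of all 499 pairs. All 5 also had an HA peak in both genotypes, as most pairs did.

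The 5 pairs that rose most moved by fewer places, 115 to 161 against 197 to 341. Between CG31637 and eya, a transcriptional cofactor gene of eye development, −log10 p was 248 and 325 in wild type and 1165 and 1047 in the deletion line (2L 6526901 to 6527480, place 273 to 112). Beside Eaat1, the glial glutamate transporter gene, it was 50.7 and 43.1 against 292 and 257. Beside Oatp30B, an organic anion transporter gene, it was 48.4 and 45.6 against 234 and 235. Beside inc, which encodes a Cullin-3 adaptor required for sleep, it was 137 and 151 against 441 and 382. Between Eaf6 and Blimp-1, an ecdysone-inducible repressor gene, it was 373 and 352 against 981 and 939. At all 5 both deletion sets lay above both wild-type sets. HA had a peak in both genotypes at all 5. CP190 had one in both genotypes at 4 of them, as at 277 of all 499 pairs, and in the deletion line alone at Oatp30B.

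**Figure D3:**
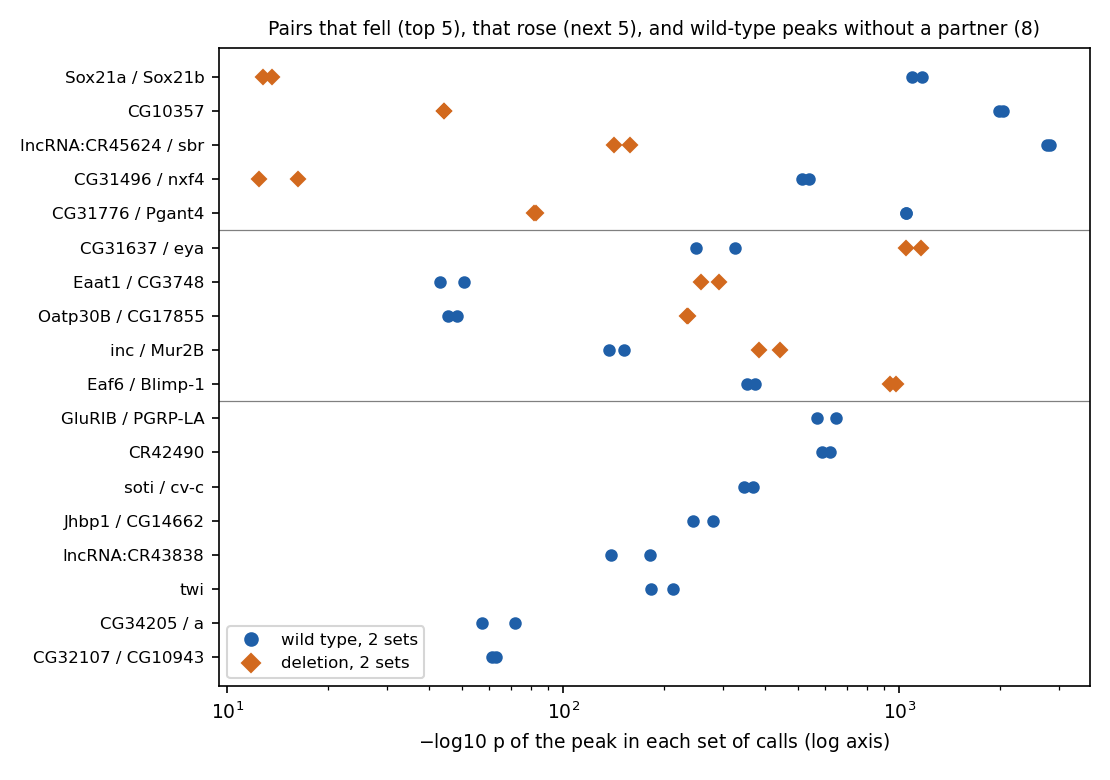
The −log10 p of named peaks in each of the 2 sets of calls (x axis, log scale), with wild type as circles and the deletion line as diamonds. Rows are the 5 pairs that fell most in place, the 5 that rose most and the 8 strongest wild-type peaks without a partner, labelled by the gene that holds the summit or the genes on both sides. In the first 5 rows the deletion values lie between 12.4 and 158 and the wild-type values between 514 and 2814.

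The strongest wild-type peaks without any deletion partner were well above threshold in both sets. The first lay between GluRIB, a glutamate receptor subunit gene, and PGRP-LA, of the peptidoglycan recognition family, at 3L 9333501 to 9334392, with 27.8-fold enrichment (place 191 of 700) and −log10 p of 569 and 649. The nearest deletion peak was 21588 bp away. The second, inside CR42490 at 2L 18665445 to 18666859, had 25.7-fold enrichment and values of 588 and 623. Between soti, a regulator of caspases in sperm maturation, and cv-c, a RhoGAP gene, at 3R 14391090 to 14391711, enrichment was 17.8-fold and the values were 367 and 346. Between Jhbp1 and CG14662 at 3R 4970564 to 4971190 enrichment was 16.9-fold. The peak inside lncRNA:CR43838 reached 12.7-fold. The peak inside twi, the mesoderm determinant twist, at 2R 23001253 to 23002326, reached 12.6-fold, with values of 182 and 213. The last 2 of the 8 lay between CG34205 and a (7.17-fold) and between CG32107 and CG10943 (6.66-fold). Distances from these 8 to the nearest deletion peak ran from 21588 to 193673 bp.

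The strongest deletion peaks without a wild-type partner were weaker, and none reached the strongest 5 deciles. The first lay between lncRNA:CR45251 and CG6163 at 3L 11351236 to 11351784, with 4.28-fold enrichment (place 385 of 648) and −log10 p of 35.4 and 21.8. The second, on another unlocalised Y scaffold, had 3.47-fold enrichment. Between Tollo, a Toll-family receptor gene, and Best4 at 3L 15267754 to 15268201 it was 3.38-fold, with values of 21.5 and 13.8. The following ones were inside Eip75B (3.11-fold), between Smyd4-3 and CG30026 (3.09-fold), inside ovo, a germline transcription factor gene (3.07-fold), inside Glut4EF, a transcription factor gene (3.03-fold), and inside chrb, an inhibitor of TOR signalling (3.01-fold). The Eip75B peak stood 354 bp from the 128.0-fold wild-type peak named above, and the Smyd4-3 peak 823 bp from a 30.3-fold one. Proximity of this kind was rare. Of the 133 deletion peaks without a partner 6 lay within 500 bp of a wild-type peak, and of the 182 such wild-type peaks 8 lay within 500 bp of a deletion peak.

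In the full lists, peaks without a partner also differed in features that the overlap did not use. Their summits were less well fixed, with a median distance between the 2 sets of 61 bp in wild type and 78 bp in the deletion line, against 9 and 9 bp for shared peaks. Peaks without a partner were also weaker, and the part of strength in these distances was not tested. Summits of shared peaks lay inside an annotated gene in 231 of 518 wild-type peaks (44.6%, 40.4 to 48.9) and 226 of 515 deletion peaks (43.9%, 39.7 to 48.2). For peaks without a partner the counts were 118 of 182 (64.8%, 57.7 to 71.4) and 102 of 133 (76.7%, 68.8 to 83.1). Genes of all kinds in the annotation cover 69.5% of the bases of the 5 large chromosome arms. The intervals of shared summits lay below that share, and those of both groups without a partner included it. Limiting both lists to an IDR of 0.01 left the wild-type peaks without a partner at 43.1% (30.5 to 56.7) and the shared ones at 40.5% (36.1 to 45.0). These 2 intervals overlap, so that the wild-type difference was not seen at that limit. The deletion peaks without a partner at that limit stood at 74.0% (64.6 to 81.6). A peak whose partner fails the limit counts there as without a partner, so that these groups differ from those of the full lists.

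For closeness to gene ends the intervals of the groups overlapped. Summits were within 200 bp of either end of a protein-coding gene in 182 of 516 shared wild-type peaks (35.3%, 31.3 to 39.5) and 72 of 182 without a partner (39.6%, 32.7 to 46.8). In the deletion line the counts were 179 of 513 (34.9%, 30.9 to 39.1) and 43 of 132 (32.6%, 25.2 to 41.0). Such positions make up 7.06% of the bases of the arms. The annotation used here gives no strand, so that starts and ends of genes cannot be told apart.

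**Figure D4:**
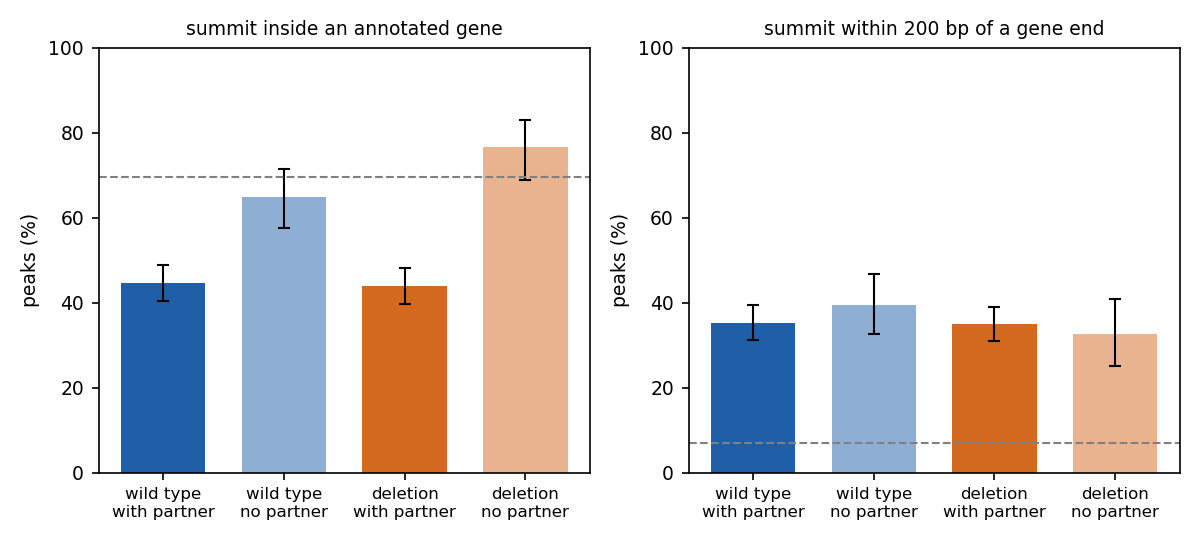
Percentage of peaks whose summit lies inside an annotated gene (left) or within 200 bp of either end of a protein-coding gene (right), for peaks with and without a partner in each genotype, with 95% Wilson intervals. Dashed lines are the share of bases of the 5 large arms, 69.5% and 7.06%. Shared peaks stand at 44.6% and 43.9% on the left, and the 4 bars on the right run from 32.6% to 39.6%.

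Peaks were spread over all arms in both genotypes. The X chromosome held 105 wild-type and 111 deletion peaks. Of those in wild type 93 (88.6%, 81.1 to 93.3) had a partner, against 420 of 589 on the autosomal arms (71.3%, 67.5 to 74.8). For the deletion list 94 of 111 X peaks (84.7%, 76.8 to 90.2) and 416 of 530 autosomal peaks (78.5%, 74.8 to 81.8) had one, and these intervals overlap. Median fold enrichment was also higher on the X in wild type, 13.7 against 7.02, and its part in the higher share was not tested.

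Of the 8 homeotic genes only Antp and Abd-B had a dCTCF peak within 5 kb of the gene, in both genotypes. Over all 13962 protein-coding genes the share with such a peak was 10.7% for the wild-type list and 10.4% for the deletion list. At Antp, the selector gene of the second thoracic segment, 3 peaks in wild type matched 3 in the deletion line, with fold enrichment of 51.9, 4.31 and 19.8 and of 40.9, 2.58 and 13.6, in the order along the gene. Their summits were 11, 18 and 28 bp apart. At Abd-B, which specifies the posterior abdominal segments, the peak at 3R 16969344 to 16970461 had −log10 p of 1515 and 1596 in wild type and 2409 and 2122 in the deletion line. Its fold enrichment was 54.6 in wild type (place 74 of 700) and 63.7 in the deletion line (place 37 of 648), with summits 21 bp apart. The peak at 3R 16957758 to 16958162 had −log10 p of 69.0 and 76.2 in wild type and 39.3 and 28.4 in the deletion line. A 2.87-fold peak at 3R 16948570 to 16948902 was listed in wild type alone, and a 1.86-fold peak at 3R 16934798 to 16935097, the last of the 648, in the deletion line alone. The genes lab, pb, Dfd, Scr, Ubx and abd-A had no such peak in either list. The 5 kb rule passes over peaks further from these genes in the bithorax complex. Inside lncRNA:iab8, between abd-A and Abd-B, deletion peaks with a wild-type partner lay at 3R 16868933 to 16869717 (34.2-fold, place 119 of 648), 16882440 to 16883096 (6.88-fold) and 16919060 to 16919458 (4.70-fold). Another, at 3R 16798453 to 16799176 between Ubx and abd-A, had 3.97-fold enrichment. Among 20 genes of insulator or architectural proteins, 0 had a wild-type peak within 5 kb and 1 had a deletion peak. That was wapl, a cohesin release factor gene, beside a 2.04-fold peak (place 625 of 648) whose summit lies in Pgd.

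The other antibodies of the series, read only as overlap with dCTCF-antibody peaks, were called against a mouse preimmune library. HA, the epitope tag, had a wild-type peak at 470 of 518 shared wild-type peaks (90.7%, 87.9 to 92.9) and at 58 of 182 without a partner (31.9%, 25.5 to 39.0). HA in the deletion line overlapped 474 of 515 shared deletion peaks (92.0%, 89.4 to 94.1) and 19 of 133 without a partner (14.3%, 9.34 to 21.2). HA of the other genotype gave overlapping intervals for peaks without a partner. Deletion HA met 47 of the 182 wild-type ones (25.8%, 20.0 to 32.6). Wild-type HA met 22 of the 133 deletion ones (16.5%, 11.2 to 23.8). In the strongest wild-type decile 62 of 70 peaks overlapped a wild-type HA peak and 70 of 70 a deletion HA peak. The strongest peak of all, between osp and CG15282, was among those without an HA peak in wild type, and had CP190 in the deletion line alone. CP190 in wild type overlapped 346 of 518 shared wild-type peaks (66.8%, 62.6 to 70.7) and 79 of 182 without a partner (43.4%, 36.4 to 50.7).

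The strongest 5 deciles of the wild-type list held 6 peaks without a partner, the first 6 named above. All 6 had a CP190 peak in wild type and none in the deletion line, against 59 of the 344 shared peaks of those deciles (17.2%). All 6 had an HA peak in both genotypes, as did 336 of those 344 (97.7%). At these 6 places the deletion lists of the dCTCF antibody and of HA therefore differ.

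Pairs that had CP190 in wild type alone stood lower in the deletion line than the other classes, by a grouping chosen after the data were examined. Of these 59 pairs 37 (62.7%) ranked lower in the deletion line in both sets and 17 (28.8%) higher. Among 277 pairs with CP190 in both genotypes 91 (32.9%) ranked lower and 147 (53.1%) higher. Among 146 pairs without CP190 in either, 28 (19.2%) ranked lower and 81 (55.5%) higher. For the 17 pairs with CP190 in the deletion line alone the counts were 4 (23.5%) and 8 (47.1%). Median fold enrichment was 26.7 (wild type) and 10.2 (deletion) for CP190 in wild type alone, 29.6 and 23.4 for both, and 5.01 and 4.19 for neither. Fold enrichment was lower in the deletion line at 48 of 59 (81.4%), 192 of 277 (69.3%) and 80 of 146 pairs (54.8%) of these classes. The median width ratio was 0.68 for CP190 in wild type alone, 0.95 for both and 1.01 for neither. Summits stayed close in the first class, where 59 of 59 pairs were within 100 bp.

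The move in place within that class was uneven. Its median was 27.5 places towards weaker, with quartiles from 18.5 places stronger (a value of -18.5) to 139 weaker. By 50 places or more, 23 of the 59 (39.0%) ranked lower and 4 higher. Of all 61 pairs lower by that margin 35 had CP190 in both genotypes and 23 in wild type alone. CP190 classes come from other libraries of the same genotypes, and no test between them was made. A pair was classed by the CP190 peaks that overlapped its wild-type interval.

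**Figure D5:**
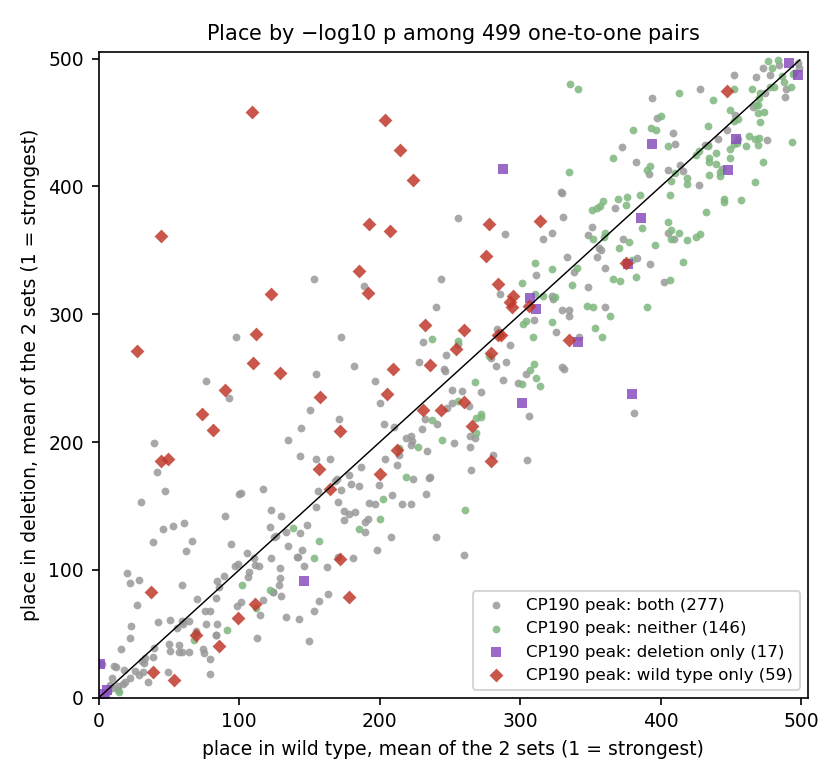
Place of each of the 499 1-to-1 pairs by −log10 p in wild type (x axis) and the deletion line (y axis), as the mean of the 2 sets of calls, with place 1 the strongest and colours for the CP190 classes. Pairs with CP190 in wild type alone (59) spread furthest towards weaker places in the deletion line, by up to 349.5 places.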

How the data were processed

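ChIP-seq peaks of a rat dCTCF antibody in 2 genotypes of whole adult flies were compared. The authors deposited 1 list for both replicates of a group. Its layout is that of IDR output. By that layout the deposited fold column is antibody signal over preimmune on a linear scale. The other deposited columns used are −log10 of the p-value, once for each of 2 sets of calls, and −log10 of the global IDR. The submitters' processing notes name cutadapt, Bowtie2 (version 2), Picard and deepTools, and the builds dm6 and dm3, with no role. The peak caller is not given in the sources used here. Scaffold names are those of Release 6, and RefSeq's gene table of that assembly gave gene names. Positions are 1-based. Depth is unknown, since the lists hold no read counts.

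Intervals were compared in Python 3.11.15 (numpy 2.4.6, pandas 2.3.3, scipy 1.17.1, matplotlib 3.10.9). Counts were identical to bedtools 2.31.1 in 10 of 10 comparisons of lists, and on simulated data 200 of 200 removed peaks were found missing. Shares carry 95% Wilson intervals, which cover counting error only. Named were the 10 strongest peaks and the 8 strongest without a partner in each list, the 5 pairs that fell and the 5 that rose most in place by fold enrichment, the 5 with the largest summit distance, the widest and narrowest peaks, and peaks within 5 kb of 2 gene lists. Members and lists were chosen with earlier results of these data known. Planned motif counts and promoter sequences were not run, since no sequence was used here.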

Additional observations from a re-analysis of the deposited data

How the results depend on the processing

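Of 68 values under alternatives to 15 results, 42 stayed close to the original and 26 moved. Close meant within 1.5 times the original for counts of peaks and within its 95% interval for other values. A change of sign was looked for only in the move in place of pairs with CP190 in wild type alone, where 0 values changed sign. The share of wild-type and deletion peaks with a partner was 64.3% and 69.4% when 50% of both intervals had to overlap, 68.4% and 73.9% with summits at most 100 bp apart, and 70.3% and 75.9% at 200 bp. With a global IDR of at most 0.01 in both lists there were 515 wild-type and 563 deletion peaks, with shares of 90.1% and 82.2%, so that the order of both lengths and shares turned around. The median widths were 1043 and 903 bp, and the share of pairs within 100 bp was 98.0%. The strongest 50% of both lists held 350 and 324 peaks, with shares of 89.4% and 96.3%, median widths of 1306 and 1185 bp, a median summit distance of 10 bp, 99.7% of pairs within 100 bp, and 39.8% of deletion summits near a gene end. Pairs in the strongest 50% of both lists likewise had 10 bp and 99.7%. Against the whole other list, the strongest 50% had shares of 98.3% and 100%. At equal list length the wild-type share was 79.3% and the deletion share 79.0%, the latter within its original interval. Within 1000 bp of a gene end lay 62.9% of wild-type and 61.7% of deletion summits, by the wider distance itself. The counts of peaks in the strongest 50%, and the lower shares when 50% of both intervals had to overlap, follow from those settings. For the other moves the cause was not tested.

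Leaving out the peaks around the widest deletion peak, restricting CP190 classes and restricting gene overlap were alternatives chosen after the data were examined. The move in place of pairs with CP190 in wild type alone was 27.5 to 38.0 places under 3 of these. It was 20.5 (interval from -10.5) among pairs strong in both lists, which leaves out pairs that fell, and 69.0 among the 250 pairs strongest in wild type, which favours them.

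No paired analysis was possible because each list holds both replicates of a genotype together, and for the same reason no replicate was left out. The motif alternatives were not run. Without read counts, depth limits the weak peaks by an unknown amount.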
